A study of Mus musculus with 24 samples.

Results

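The genes described here encode secreted Wnt ligands, their Frizzled (Fzd) receptors and 3 families of secreted modulators, the secreted Frizzled-related proteins (Sfrp), the Dickkopf proteins (Dkk) and the R-spondins (Rspo). Members were every gene whose symbol began with Wnt, Fzd, Sfrp, Dkk or Rspo followed by a number, which gave 35 of the 17501 genes in mouse embryonic stem cells (mESC) and 28 of the 16024 genes in neural progenitor cells (NPC). All 28 were also in the mESC table. By family there were 18 and 12 Wnt, 5 and 5 Fzd, 4 and 4 Sfrp, 4 and 4 Dkk, and 4 and 3 Rspo genes in mESC and NPC. Gene expression was measured by RNA sequencing in 24 libraries, 2 for each of 6 genotypes in each cell type: wild type for Htt (WT), knockout of Htt (KO), and the heterozygous knock-in alleles Q20, Q50, Q92 and Q111, named for their number of CAG repeats in Htt. Htt encodes huntingtin, and an expanded CAG repeat in the human gene causes Huntington's disease. The titles give 92 repeats for the third allele and the growth protocol 89; 92 was used. Stem cells were grown with leukemia inhibitory factor (LIF) on gelatin with a layer of irradiated mouse embryonic fibroblast feeder cells. They were turned into NPC in N2B27 medium and expanded on laminin with FGF and EGF. The knock-in alleles are each described as 1 line, so allele and line cannot be told apart. The series text calls the 2 libraries of a group biological samples and does not tell of separate cultures or differentiations, so p-values measure the spread between these libraries. The source of the WT and KO cells is not given in the sources used here.

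Wnt proteins are lipid-modified ligands that bind Frizzled receptors at the cell surface. Together with the co-receptors Lrp5 and Lrp6 they stabilise β-catenin, which acts with TCF/LEF factors on target genes, and some ligands, such as Wnt5a, act mainly through branches that do not use β-catenin. Sfrp proteins bind Wnt ligands outside the cell, Dkk1, Dkk2 and Dkk4 bind Lrp5 and Lrp6, and R-spondins act through Lgr receptors to keep Frizzled on the cell surface. In embryonic stem cells Wnt signalling supports self-renewal, and in the neural lineage it takes part in patterning, progenitor expansion and astrocyte development.

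The values are CPM (read counts scaled by the authors for library size). The cell types were scaled apart, so levels were compared only within a cell type. Between 48525333 and 118038952 reads per library lay behind them. Genes that reached 1 CPM in 2 or more libraries were tested, 13916 in mESC and 13206 in NPC. Htt itself was at 137 and 177 CPM in the WT and 100.1 and 94.9 CPM in the KO libraries of NPC, and in mESC at 124 and 113 CPM in WT and 139 and 68.5 CPM in KO; the library labelled KO replicate 1 in mESC was therefore not below WT. In NPC the Q20 libraries stood apart. Pou5f1, a defining stem cell gene, was at 90.1 and 87.4 CPM in them and at most 0.405 CPM in the other 10 NPC libraries, and the neuronal gene Stmn2 was at 103 and 128 CPM against at most 5.51. The sum of 5 stem cell markers was 106 to 108 CPM in the Q20 libraries of NPC and 4.72 to 26.5 CPM elsewhere in NPC. Most of the Q20 sum was Pou5f1, so it largely restates that 1 gene. The listed markers Sox2, Zfp42, Dppa5a and Utf1 were not in the NPC table. The sum of 6 astrocyte markers went in order of the lines, from 2094 and 1866 CPM in Q20 to 1422 and 965 in Q50, 335 and 541 in Q92, and 252 and 238 in Q111. The sum of 10 fibroblast and feeder markers was 992 and 1011 CPM in Q50, 271 to 340 in Q20 and 12.1 to 52.2 in the other NPC libraries. In mESC, 9 such markers summed to 12.9 to 20.3 CPM in WT and KO and to 80.2 to 147 CPM in the knock-in lines. The sum of 8 neural progenitor markers was 3994 and 4179 CPM in the Q20 libraries of NPC and 5425 to 9383 CPM in the other 10, and that of 6 neuronal markers 784 and 959 CPM in Q20, 746 to 1040 in the longer lines and 1255 to 1628 in WT and KO. The neuronal list as a whole thus did not share the high Q20 level of Stmn2. The sum of 5 oligodendrocyte lineage markers was 26.2 and 25.1 CPM in the Q92 libraries of NPC and 128 to 338 CPM in the others. The part of these markers in the results below was not tested. For the members, results among the knock-in lines are also given without Q20 or with WT as the reference. In bulk samples, fewer cells of a type and less RNA per cell cannot be told apart.

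The filter was passed by 24 members in mESC and 18 in NPC. The 11 that did not pass in mESC were Wnt2, Wnt7a, Wnt8b, Wnt9b, Wnt10b, Wnt16, Dkk2, Dkk4, Rspo2, Rspo3 and Rspo4, whose highest value was 1.82 CPM, for Wnt7a. The 10 that did not pass in NPC were Wnt2, Wnt6, Wnt11, Wnt16, Sfrp5, Dkk1, Dkk2, Dkk4, Rspo1 and Rspo2, whose highest value was 0.882 CPM, for Dkk2 in Q50. Wnt3a, Wnt8a, Wnt8b, Wnt9b, Wnt10a, Wnt10b and Rspo4 were analysed in mESC alone. Rspo3 passed in NPC through the Q20 libraries alone, being at most 0.975 CPM in the other 10. The filter therefore fixed that it was higher in Q20, nothing is read from its calls, and counts are also given without it.

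**Figure D1:**
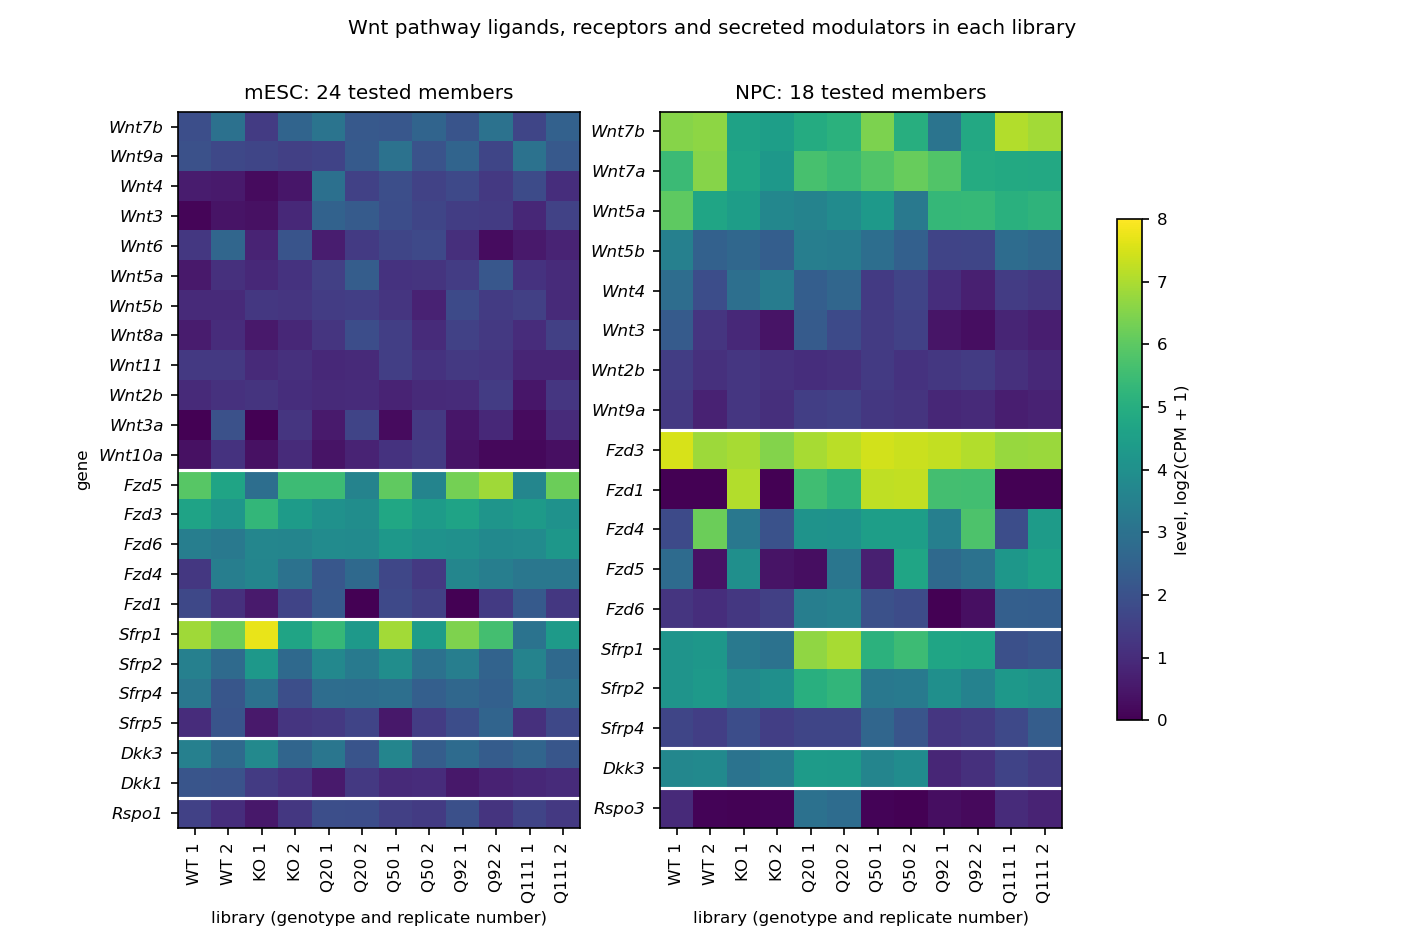
Levels of the tested members as log2(CPM + 1) (colour, 0 to 8) in the 12 libraries (columns) of mESC (left, 24 genes) and NPC (right, 18 genes), with families separated by white lines. In mESC the brightest genes are Sfrp1 and Fzd5; in NPC they are Fzd3, Fzd1, Wnt7b, Wnt7a and, in Q20, Sfrp1.

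In mESC the ligands were low and the most abundant members were an inhibitor and 2 receptors. None of the 12 tested Wnt genes reached a mean of 10 CPM over the 12 libraries, and the highest, Wnt7b, had a mean of 4.42 CPM. Sfrp1, which binds and sequesters Wnt proteins, had the highest mean of all members, 65.2 CPM, and also the highest mean per kilobase of exon, 14.9 CPM. Its libraries were at 115 and 73.3 CPM in WT, 213 and 24.3 in KO, 40.0 and 18.9 in Q20, 117 and 20.4 in Q50, 86.7 and 47.9 in Q92, and 7.22 and 19.7 in Q111. Replicate 1 was the higher library in 5 of 6 genotypes, and the KO libraries lay farthest apart. Fzd5, a receptor known from embryonic and eye development, followed with a mean of 45.2 CPM. It was at 59.8 and 24.6 CPM in WT, 6.47 and 43.8 in KO, 43.3 and 11.0 in Q20, 65.2 and 11.3 in Q50, 78.6 and 114 in Q92, and 11.9 and 72.1 in Q111, and both Q92 libraries lay above all others. Fzd3, a receptor needed for axon tracts and, with Fzd6, for planar cell polarity, had a mean of 20.98 CPM. It was at 23.9 and 17.4 CPM in WT, 38.3 and 20.02 in KO, 15.5 and 14.2 in Q20, 25.9 and 19.9 in Q50, 23.9 and 16.99 in Q92, and 19.7 and 15.9 in Q111, and both Q20 libraries lay below the other 10, with no called change. Dkk1, the classical Lrp5 and Lrp6 antagonist, was at 3.30 and 3.17 CPM in WT and between 0.422 and 1.63 CPM in the other 10 mESC libraries.

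In NPC the ligands Wnt7a, Wnt7b and Wnt5a were abundant. Per kilobase of exon, the highest means were those of Wnt7a with 14.1 CPM, Fzd1 with 12.2, Wnt7b with 12.0 and Fzd3 with 10.5, while Wnt5a had 3.42. Wnt7a and Wnt7b are closely related ligands of the developing forebrain that also act on brain blood vessels. Wnt7a was at 42.5 and 92.6 CPM in WT, 24.9 and 18.3 in KO, 50.4 and 42.8 in Q20, 55.8 and 69.4 in Q50, 55.7 and 29.4 in Q92, and 27.9 and 27.3 in Q111. Wnt7b was at 93.5 and 98.3 CPM in WT, 23.5 and 21.5 in KO, 29.2 and 33.3 in Q20, 85.0 and 31.3 in Q50, 7.38 and 27.1 in Q92, and 135 and 118 in Q111. The 2 ligands thus had different orders over the lines, with Q111 at the top for Wnt7b and, with KO, at the bottom for Wnt7a. Fzd3 had the highest mean of the members in NPC, 135 CPM. It was at 183 and 113 CPM in WT, 122 and 91.2 in KO, 122 and 142 in Q20, 174 and 165 in Q50, 153 and 134 in Q92, and 107 and 109.97 in Q111, and the WT libraries alone spanned most of that range.

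Fzd1, Fzd4 and Fzd5 differed widely between the 2 libraries of some genotypes. Fzd1 (chr5:4753839-4758035, minus strand) has a single exon in the annotation and Fzd4 and Fzd5 have 2, while Fzd3 and Fzd6 have 7. In NPC, Fzd1 was listed at 0 in both WT and both Q111 libraries and in KO replicate 2, but at 133 CPM in KO replicate 1, 45.7 and 36.1 in Q20, 151 and 153 in Q50, and 48.0 and 47.1 in Q92. The KO replicates differed by 7.06 on the log2(CPM + 1) scale, the largest such difference of the tested members. Fzd4 was at 2.50 and 72.6 CPM in the WT and 9.97 and 53.0 CPM in the Q92 libraries of NPC, and Fzd5 at 0.638 and 24.9 CPM in Q50 and 15.0 and 0.344 CPM in KO. Their largest replicate differences were 4.39 and 3.98, against 0.69 for Fzd3 and 0.34 for Fzd6. The same held over all genes of NPC: 21.9% of genes with 1 exon and 23.2% with 2 had a replicate difference over 2 on this scale, against 2.49% of genes with 6 or more exons. A value of 0 for Fzd1 thus stood beside up to 13482 reads in another NPC library, and it is given only as listed. No fold change is given for Fzd1, and the cause of the zeros was not tested.

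**Figure D2:**
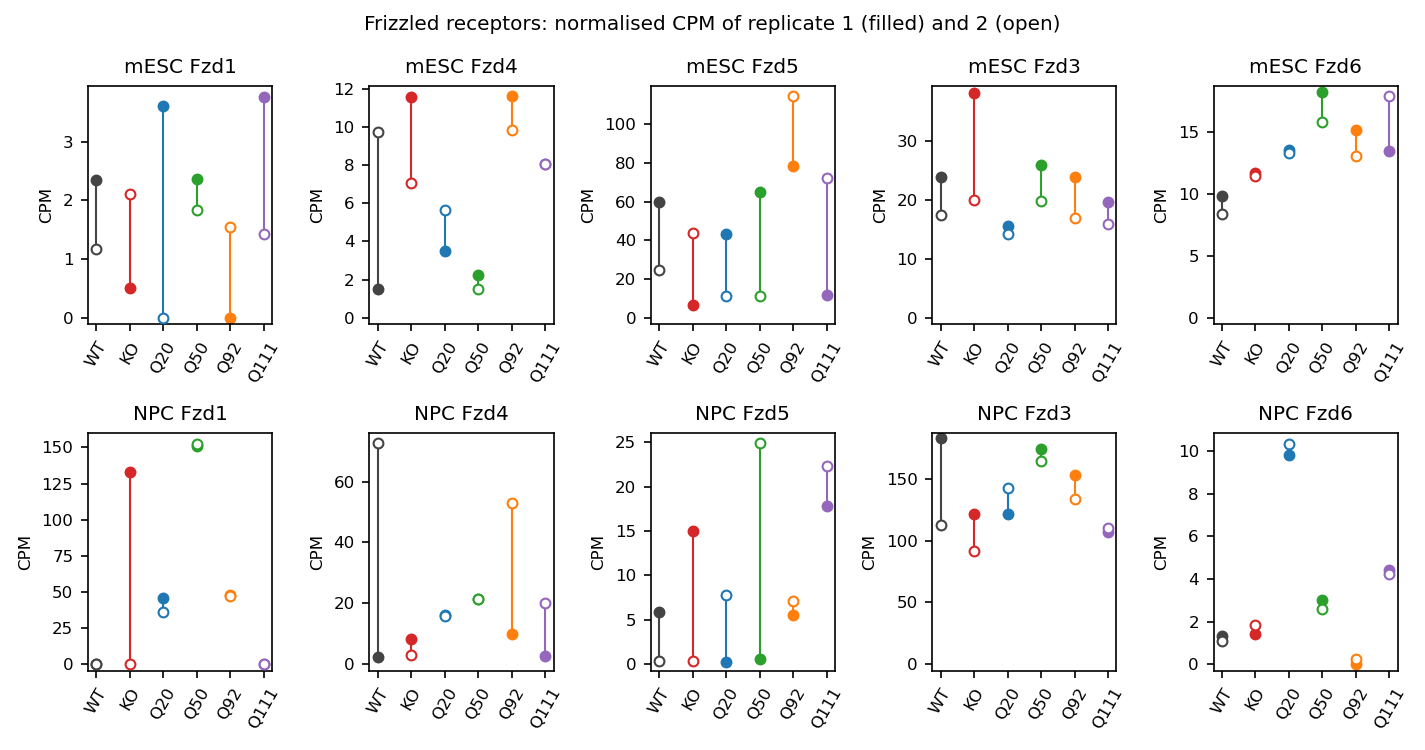
Normalised CPM (vertical axis) of 5 Frizzled genes in each genotype (horizontal axis) in mESC (top) and NPC (bottom), with replicate 1 filled, replicate 2 open and a line joining them. Fzd1, Fzd4 and Fzd5 have long joining lines, up to 0 against 133 CPM for Fzd1 in NPC KO, while those of Fzd6 are short.

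Changes were tested with limma on log2(CPM + 1), two-sided, with Benjamini-Hochberg adjustment over all genes tested and a threshold of 0.05; a gene past it is called. Log2 changes on this scale understate those of genes with low values. No replicate block was used except where stated. In mESC no member passed the test for KO against WT: 0 of 24 were called, where 0.0144% of all genes were. One member, Dkk1, had an unadjusted p under 0.05, as did 3.97% of all genes, and edgeR on the recovered reads also called 0. No member was called either for Q50, Q92 or Q111 against Q20 (0.00719%, 0.00719% and 0% of all genes called), for any difference among the 4 knock-in lines (0.0719%) or for the slope on CAG length (0%). The members with an unadjusted p under 0.05 in these 5 tests numbered 0, 1, 2, 3 and 2, beside 6.37%, 5.37%, 2.69%, 6.05% and 2.57% of all genes, and edgeR called 0 in each. The median change of the 24 members in KO against WT was -0.22, and that of all genes 0.01.

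In mESC, Q20 against WT was the comparison with a called member. Wnt3 (chr11:103774150-103817957, plus strand), a ligand of the β-catenin branch needed for gastrulation, was at 0.0824 and 0.336 CPM in WT, 0.288 and 0.875 in KO, 4.68 and 3.95 in Q20, 2.73 and 2.17 in Q50, 1.76 and 1.59 in Q92, and 0.869 and 1.96 in Q111. Both Q20 libraries lay above all others. It rose by 2.14 (SE 0.30) in Q20 against WT, with a limma adjusted p of 0.0387, and was 1 of 24 members called, or 4.17%, against 0.323% of all genes called and 0.259% called higher; at an unadjusted p under 0.05 there were 5 members and 12.3% of all genes. With the replicate number as a block, which these mESC libraries share across genotypes, the adjusted p was 0.00762 and 4 members were called, against 10.6% of all genes: Wnt3, Wnt4 with a rise of 1.65 (adjusted p = 0.0319), Wnt5a with a rise of 1.10 (adjusted p = 0.045) and Dkk1, which fell by 1.13 (adjusted p = 0.0271). Wnt4, a ligand of kidney and gonad development, was at 6.76 and 1.91 CPM in Q20 against 0.527 and 0.496 in WT. Without the block, leaving out any single library of WT or Q20, or using edgeR, ended the call of Wnt3; its adjusted p ranged from 0.00762 to 0.376 over the alternatives. All 8 knock-in libraries exceeded WT and KO in the fibroblast and feeder marker sum given above, and its part in the Wnt3 difference was not tested.

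In NPC the KO libraries held less of the Wnt antagonist Sfrp1 than WT. Sfrp1 (chr8:23411502-23449632, plus strand) was at 16.8 and 17.8 CPM in WT and 8.50 and 7.06 CPM in KO and fell by 1.06 (SE 0.19), with a limma adjusted p of 0.043. It was the 1 member called of 18, or 5.56%, against 1.42% of all genes called and 0.545% called lower. The call rested on single libraries: its adjusted p was 0.0804 without WT replicate 1, 0.0821 without KO replicate 1 and 0.131 without KO replicate 2, in a range of 0.0325 to 0.93 over the alternatives. Without WT replicate 2, 6 members were called lower, namely Fzd3, Rspo3, Sfrp1, Wnt3, Wnt5a and Wnt5b, but 11.9% of all genes were called in that fit. Without KO replicate 2 only Fzd1 was called, higher, from the zeros described above, against 1.13% of all genes. With the replicate block the adjusted p of Sfrp1 was 0.0605; the replicate differences of WT and KO correlated at 0.467 over all genes. The 2 WT libraries of NPC also differed in a known Wnt target, Ccnd1, a cyclin of the G1 phase, at 63.4 and 1167 CPM.

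In 7 of the 18 members both KO libraries of NPC lay below both WT libraries: Sfrp1, Sfrp2, Dkk3, Wnt3, Wnt5a, Wnt7a and Wnt7b. Over all genes 13.9% did so. Wnt7b, at 21.5 and 23.5 CPM in KO against 93.5 and 98.3 CPM in WT, had the widest gap in CPM, with an adjusted p of 0.155. Except for Sfrp1, the limma adjusted p of these genes was 0.133 to 0.499. In 2 members, Wnt4 and Fzd6, both KO libraries lay above both WT libraries, as did 15.8% of all genes. The median change of the 18 members was -0.45 and that of all genes 0.03.

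**Figure D3:**
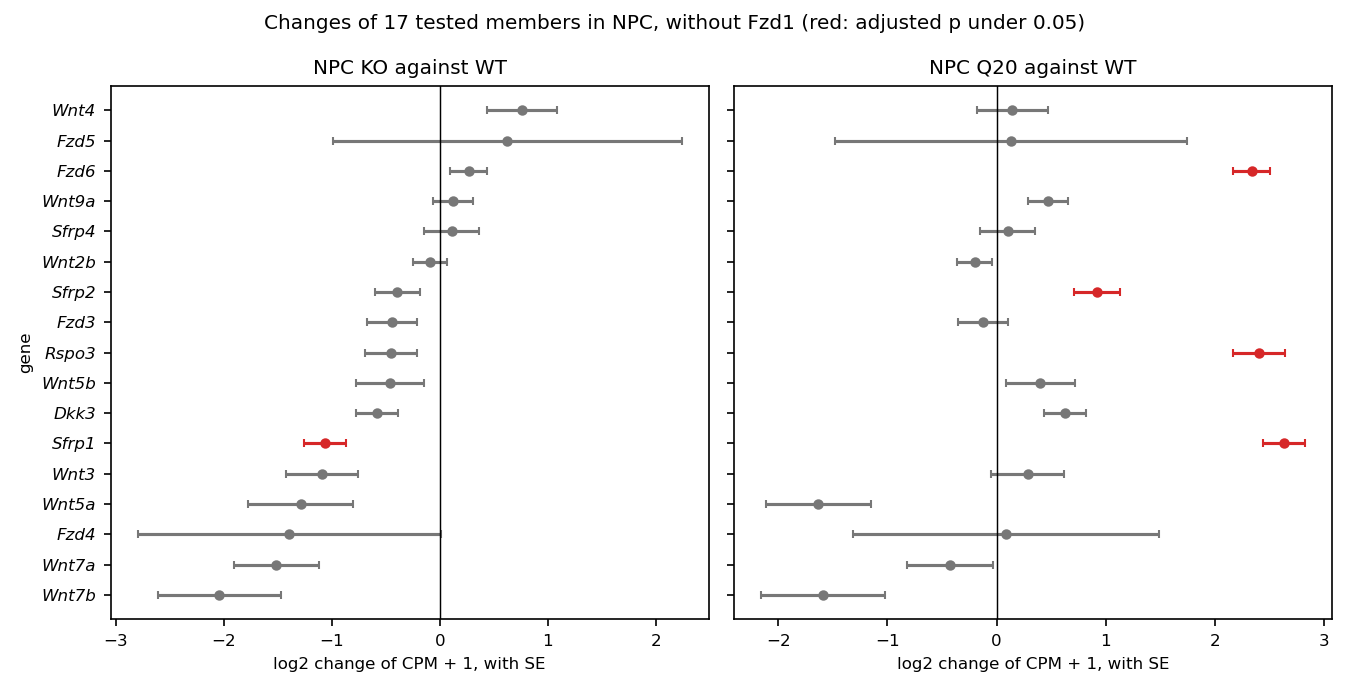
Log2 change of CPM + 1 with its SE (horizontal axis) of 17 tested members in NPC, without Fzd1, for KO against WT (left) and Q20 against WT (right), ordered by the change in KO; red marks an adjusted p under 0.05. Sfrp1 is the red point at the left, at -1.06, and Sfrp1, Rspo3, Fzd6 and Sfrp2 are red at the right, between 0.92 and 2.63; both panels share the WT libraries.

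In Q20 NPC, 2 Wnt-binding inhibitors and a receptor were higher than in WT. Of 18 members 4 were called, or 22.2%, all higher, against 14.5% of all genes called and 9.97% called higher. Without Rspo3 they were 3 of 17, or 17.6%, near the share of all genes. Sfrp1 was at 101 and 124 CPM in Q20 against 16.8 and 17.8 in WT and rose by 2.63 (SE 0.19, limma adjusted p = 4.54e-05). Rspo3 (chr10:29452416-29535867, minus strand), an R-spondin that amplifies Wnt signals, was at 7.00 and 6.18 CPM in Q20 and 0.928 and 0.0614 CPM in WT. The filter fixed this rise, so nothing is read from its call. Fzd6 (chr15:39006034-39038188, plus strand) was at 9.83 and 10.4 CPM against 1.33 and 1.07 and rose by 2.34 (SE 0.17, limma adjusted p = 4.39e-05). Sfrp2 (chr3:83766321-83774316, plus strand), a relative of Sfrp1, was at 32.2 and 37.7 CPM against 16.8 and 19.2 and rose by 0.92 (SE 0.21, limma adjusted p = 0.0216). With edgeR on the recovered reads, Sfrp1 and Sfrp2 were called; Fzd6 was not, with an adjusted p of up to 0.0743. On leaving out Q20 replicate 1 or replicate 2, Fzd6 and Sfrp1 were called, against 5.13% and 5.9% of all genes. Without WT replicate 1 the called members were Fzd6, Rspo3, Sfrp1, Wnt5b and Wnt9a, against 21.6% of all genes. The Q20 libraries also had the highest astrocyte and the lowest neural progenitor marker sums given above, and the highest stem cell sum, which was mostly Pou5f1. The part of these markers in the rises was not tested.

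The same members, and several ligands, were higher in Q20 than in the longer-repeat lines of NPC. In 9 of 18 members both Q20 libraries lay above all 6 libraries of Q50, Q92 and Q111, which was so for 18.1% of all genes: Sfrp1, Sfrp2, Dkk3, Rspo3, Fzd6, Wnt3, Wnt4, Wnt5b and Wnt9a. Without Rspo3, whose place on top in Q20 was fixed by the filter, they were 8 of 17. No other line was on top in so many members; the counts were 3 for Q50 (Fzd1, Fzd3 and Wnt7a, against 12% of all genes), 1 for Q92 (Wnt5a, 14.6%) and 1 for Q111 (Wnt7b, 16.5%). In no member did both Q20 libraries lie below the rest, as they did in 17.5% of all genes. The lowest line differed by member: Q92 for Dkk3, Fzd6, Sfrp4, Wnt3, Wnt4, Wnt5b and Wnt7b (13.7% of all genes), Q111 for Sfrp1, Wnt7a, Wnt9a, Fzd1 and Fzd3 (14%), and Q50 for Sfrp2 and Rspo3 (11.6%). The Q92 libraries also had the lowest oligodendrocyte lineage sum given above, whose part in the low Q92 values was not tested.

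Among the secreted modulators, Sfrp1 fell from 101 and 124 CPM in Q20 to 34.1 and 43.5 in Q50, 25.0 and 24.1 in Q92, and 2.88 and 3.35 in Q111. The libraries of neighbouring lines did not overlap, and the Q111 libraries were also below WT and KO. Dkk3 (chr7:112116017-112159057, minus strand), a divergent Dickkopf protein that is not an established Lrp6 antagonist, was at 20.0 and 19.4 CPM in Q20, 11.5 and 13.8 in Q50, 0.809 and 1.16 in Q92, and 2.07 and 1.60 in Q111, against 12.0 and 12.9 in WT and 7.22 and 8.79 in KO. The drop thus lay between Q50 and Q92, with both longer lines below WT and KO. Sfrp2, at 12.2 and 14.8 CPM in KO, was at 8.22 and 8.55 CPM in Q50, 14.8 and 10.6 in Q92, and 18.3 and 16.1 in Q111, and so was lowest in Q50. Rspo3, at 0.0296 and 0.0618 CPM in KO, was near 0 in Q50, with 0.058 and 0 CPM, and at 0.231 and 0.156 CPM in Q92 and 0.975 and 0.751 CPM in Q111. Sfrp4 was low throughout, at 2.19 and 1.78 CPM in WT, 2.72 and 1.78 in KO, 2.17 and 2.21 in Q20, 5.18 and 3.32 in Q50, 1.42 and 1.59 in Q92, and 2.44 and 4.08 in Q111.

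Among receptors and ligands, Fzd6, at 1.44 and 1.86 CPM in KO, was at 3.00 and 2.60 CPM in Q50, 0 and 0.266 in Q92, and 4.41 and 4.24 in Q111, so that Q111 was higher than Q50 and Q92. Wnt3 was at 3.89 and 2.50 CPM in Q20, 1.64 and 1.94 in Q50, 0.380 and 0.235 in Q92, and 0.758 and 0.595 in Q111, against 3.89 and 1.36 in WT and 0.906 and 0.335 in KO. Wnt4 had 4.22 and 5.29 CPM in Q20, 1.55 and 2.10 in Q50, 1.07 and 0.641 in Q92, and 1.68 and 1.46 in Q111, against 6.32 and 2.68 in WT and 6.52 and 9.22 in KO. Both were lowest in Q92, like Wnt5b, which was at 9.60 and 9.33 CPM in Q20, 6.42 and 4.47 in Q50, 2.10 and 2.16 in Q92, and 6.11 and 5.37 in Q111, against 10.2 and 4.602 in WT and 5.37 and 4.23 in KO. Wnt9a, a ligand of joint and blood stem cell development, was at 1.52 and 0.6995 CPM in WT, 1.40 and 1.12 in KO, 1.802 and 1.93 in Q20, 1.43 and 1.29 in Q50, 0.859 and 0.922 in Q92, and 0.596 and 0.709 in Q111, a narrow range in which the knock-in lines did not overlap. Wnt5a (chr14:28504750-28527448, plus strand) went the other way, with 11.0 and 13.7 CPM in Q20, 19.1 and 8.34 in Q50, 39.3 and 39.9 in Q92, and 32.5 and 35.5 in Q111. In KO it was at 21.04 and 11.9 CPM and in WT at 63.4 and 25.3. Its Q92 and Q111 libraries did not overlap with Q20 and Q50, but WT replicate 1 was above all of them.

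**Figure D4:**
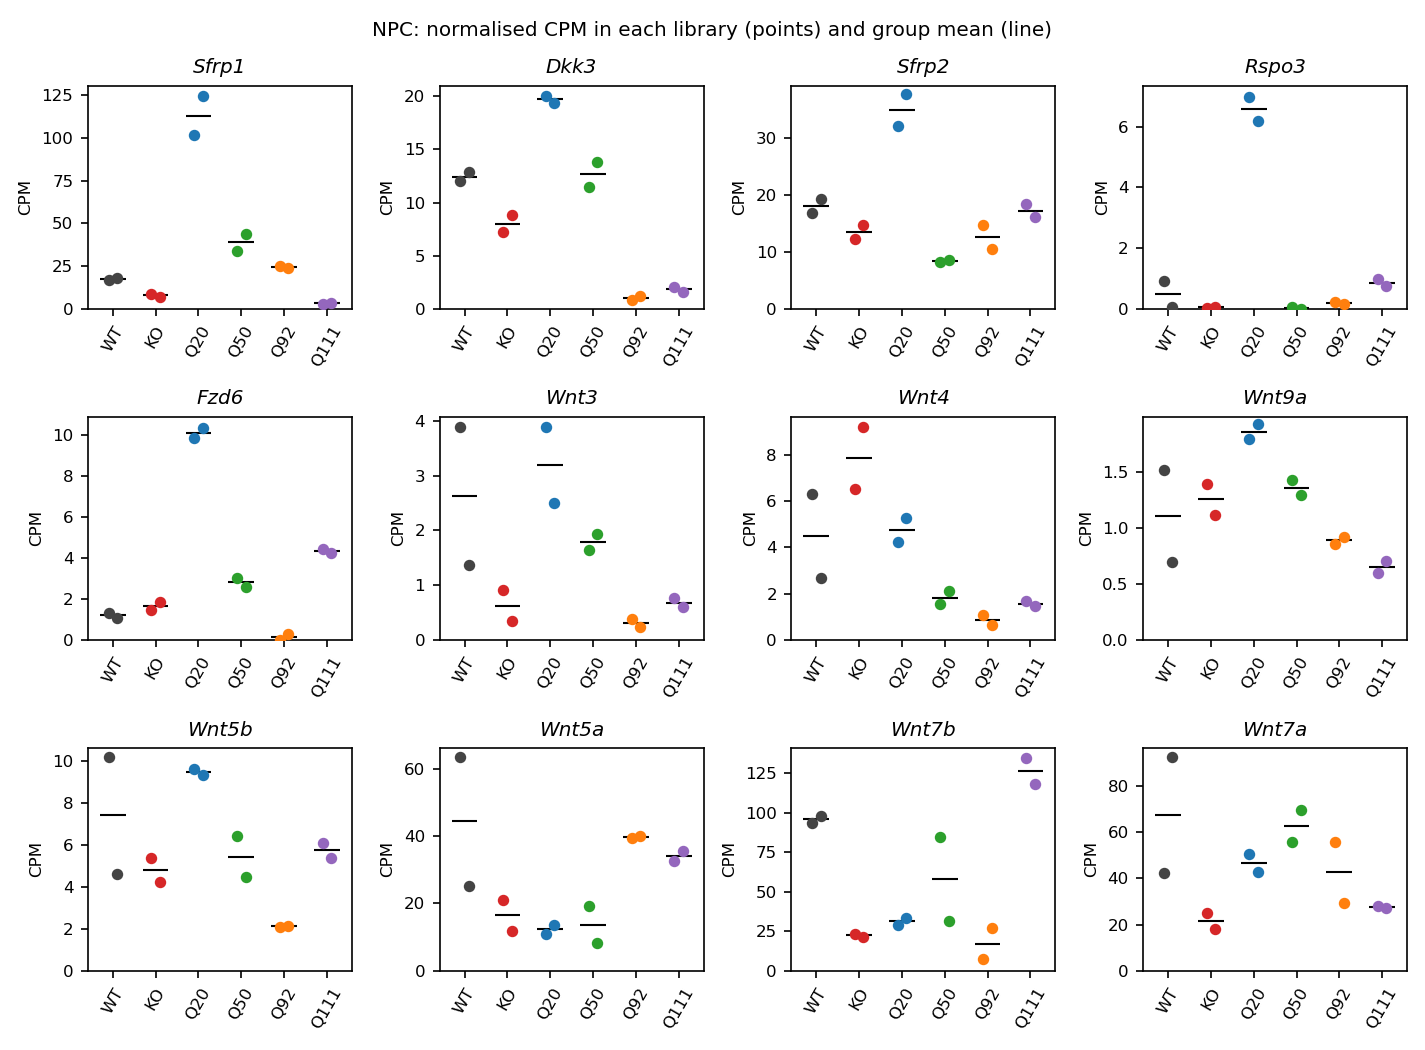
Normalised CPM (vertical axes, from 0) of 12 members in NPC by genotype (horizontal axes), with a point for each library and a line at the mean of the 2. Sfrp1, Dkk3, Sfrp2, Rspo3, Fzd6, Wnt3, Wnt4, Wnt9a and Wnt5b have their highest knock-in values in Q20, Wnt5a in Q92 and Wnt7b in Q111.

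Tested against Q20, 4 members were lower in Q50 NPC, or 22.2%, against 18.8% of all genes called and 10.7% called lower. Rspo3 fell by 2.88 (SE 0.24), Sfrp2 by 1.93 (SE 0.21), Fzd6 by 1.55 (SE 0.17) and Sfrp1 by 1.52 (SE 0.19), with limma adjusted p of 9.44e-05 to 0.000924. Without Rspo3 they were 3 of 17, or 17.6%, again near the share of all genes, and edgeR did not call Fzd6. For Q92, 9 members were lower and 1 higher of 18, or 55.6%, against 25.8% of all genes called, 15.9% lower and 9.88% higher. Dkk3 fell by 3.39 (SE 0.19), Fzd6 by 3.30 (SE 0.17), Rspo3 by 2.67 (SE 0.24) and Sfrp1 by 2.15 (SE 0.19), all with limma adjusted p of 0.00012 or less. Wnt5b fell by 1.74, Wnt3 by 1.66, Wnt4 by 1.64, Sfrp2 by 1.41 and Wnt9a by 0.60, and Wnt5a rose by 1.61 (SE 0.48, limma adjusted p = 0.0414). For Q111, 8 members were lower and 1 higher of 18, or 50%, against 28.3% of all genes called, 16.1% lower and 12.2% higher. Sfrp1 fell by 4.79 (SE 0.19, limma adjusted p = 2.68e-06), Dkk3 by 2.87, Rspo3 by 2.03, Wnt3 by 1.30, Wnt4 by 1.16, Fzd6 by 1.06, Sfrp2 by 0.98 and Wnt9a by 0.79, and Wnt7b rose by 1.98 (SE 0.57, limma adjusted p = 0.0341). The falls of Rspo3 against Q20 in all these lines were fixed by the filter, and nothing is read from them. Without Rspo3 the calls were 9 of 17 for Q92 and 8 of 17 for Q111. The call of Fzd6 in Q111 was lost with a pseudocount of 0.1 and with edgeR (adjusted p of 0.00258 to 0.287 over the alternatives). These comparisons share the Q20 libraries. Leaving out Q20 replicate 1 or replicate 2 left 6 members called for Q92 and 3 for Q111, Dkk3, Fzd6 and Sfrp1 among them each time, where 9.62% and 11.4% of all genes were called for Q92 and 8.92% and 11% for Q111; Rspo3 failed the filter in these fits.

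With WT in place of Q20 as the reference, fewer members were called in Q92 and Q111 and some changes took the other sign. In Q50, Sfrp1 was 1.11 and Fzd6 0.79 above WT and Sfrp2 fell by 1.01, and with Fzd1, listed at 0 in WT, 4 members were called, against 6.62% of all genes. In Q92, 6 members were lower than WT, against 8.66% of all genes called: Dkk3 fell by 2.76, Wnt7b by 2.66, Wnt4 by 1.49, Wnt3 by 1.38, Wnt5b by 1.34 and Fzd6 by 0.96, with limma adjusted p of 0.000262 to 0.0414. Sfrp1 in Q92 was 0.48 above WT (limma adjusted p = 0.156) and Wnt5a differed by -0.02 (limma adjusted p = 0.984). In Q111, Dkk3 fell by 2.25 and Sfrp1 by 2.15 while Fzd6 was 1.28 higher, 3 called members against 16.6% of all genes. Sfrp2 in Q50, Dkk3, Fzd6, Wnt3, Wnt4 and Wnt5b in Q92, and Dkk3 and Sfrp1 in Q111 were thus called lower against either reference. Rspo3, Wnt9a and Wnt5a were called against Q20 and not against WT in any longer line, and these differences between references were not tested.

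Any difference among the 4 knock-in lines of NPC was called for 13 of 18 members, or 72.2%, against 41% of all genes, and for 12 of 17 without Rspo3. Both counts take in Fzd1, whose call includes the zeros listed for Q111. Fzd1 was not called with edgeR or without the Q20 line. The members not called were Wnt2b, Wnt7a, Fzd3, Fzd4 and Fzd5. Wnt2b was flat, between 0.879 and 1.73 CPM in all 12 NPC libraries. Without the Q20 line 5 members were called, Sfrp1, Dkk3, Fzd6, Wnt7b and Sfrp2, against 21.3% of all genes.

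Over repeat length, 5 members had a falling and 1 a rising slope in NPC, 33.3% of 18, against 22% of all genes called, 10.1% as falling and 12% as rising. Slopes are given as the log2 change over the 91 repeats from 20 to 111. Sfrp1 fell by 4.10 (SE 0.60, limma adjusted p = 0.00356), Dkk3 by 3.46 (SE 0.49, limma adjusted p = 0.00313), Wnt3 by 1.53, Wnt4 by 1.25 and Wnt9a by 0.78, and Wnt5a rose by 1.75 (SE 0.40, limma adjusted p = 0.0176). The line means of Sfrp1 and Wnt9a fell at every step from Q20 to Q111, as for 6.35% of all genes. Repeat length takes 1 value per line: with 1 mean per line, 0 members were called by limma, and the adjusted p of Sfrp1 and Dkk3 was 0.295. On the 8 libraries edgeR called the same 6 members as limma. Without the Q20 line the slope of Dkk3 was -3.82 (adjusted p = 0.0398, in a range of 0.00337 to 0.295 over the alternatives) and that of Sfrp1 -4.29 (adjusted p = 0.0551, in a range of 0.00249 to 0.295). That fit called 3 members, Dkk3, Fzd3 and Fzd1, the last with its zeros listed for Q111, against 14.3% of all genes. Without Q20 replicate 1 only Sfrp1 and Dkk3 were called. The astrocyte marker sum fell over the lines in the same order as Sfrp1, and its part in these slopes was not tested.

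The slopes of 2 members differed between the cell types. Of 16 members tested in both, 2 were called, or 12.5%, against 4.86% of all genes. Dkk3 had a slope of -0.32 in mESC and -3.46 in NPC, a difference of -3.14 (SE 0.70, limma adjusted p = 0.0196), and Wnt5a had -0.47 and 1.75, a difference of 2.22 (SE 0.61, limma adjusted p = 0.0475). In mESC, Dkk3 was between 3.27 and 12.5 CPM and Wnt5a between 0.461 and 4.09 CPM. The difference of Dkk3 stayed past the threshold in 18 of 21 alternatives and that of Wnt5a in 4 of 21; both were lost without the Q20 line, at -2.92 and 2.16 with limma adjusted p of 0.242 and 0.307, in ranges of 0.00968 to 0.311 for Dkk3 and 0.0264 to 0.363 for Wnt5a. Leaving out mESC Q20 replicate 2 ended both calls. Sfrp1 had slopes of -0.62 in mESC and -4.10 in NPC, with no called difference.

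**Figure D5:**
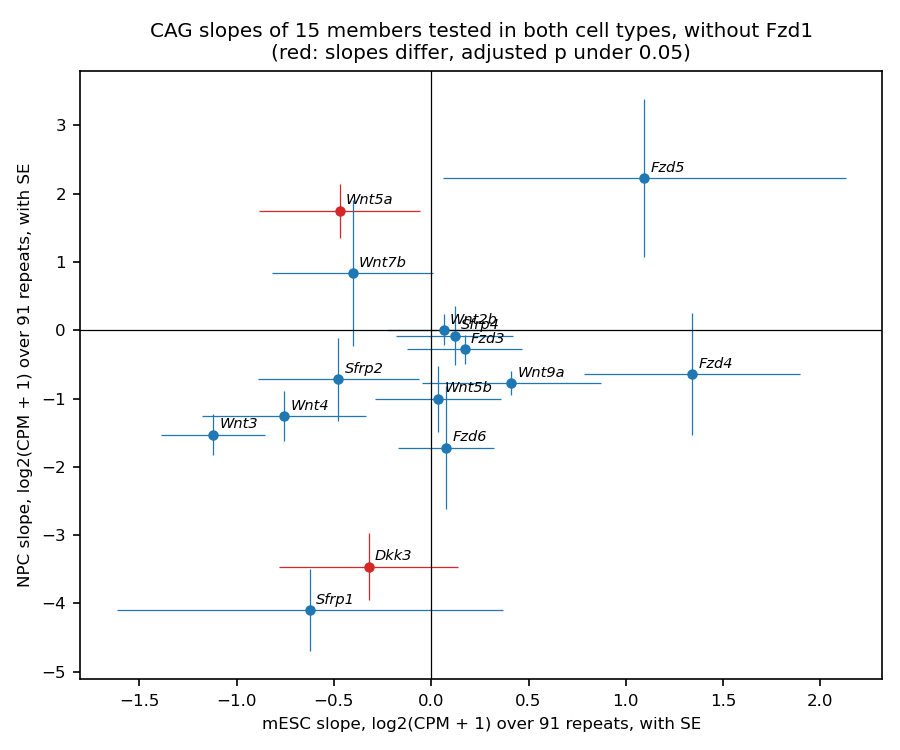
Slope of log2(CPM + 1) over 91 repeats with its SE in mESC (horizontal axis) and NPC (vertical axis) for 15 members tested in both cell types, without Fzd1; red marks a called difference of slopes. Dkk3 is the red point at -3.46 and Wnt5a that at 1.75 on the NPC axis, both near 0 on the mESC axis, while Sfrp1, at -4.10 in NPC, has a wide error in mESC.

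The promoters of members that were highest in Q20 NPC are shown because these genes shared Q20 as their highest knock-in line. RefSeq promoter sequences on GRCm38.p6 were matched by symbol for 23 of the 35 members, in 26 windows of 250 bases. Each window lies before a listed start, which can be inside the gene. Sfrp1, Dkk3, Fzd6 and Rspo3 were not among the matched members. The letters CTTTGA, the core of the TCF/LEF recognition sequence, were searched on both strands. They occurred in 4 of the 26 windows, 15.4%, and in 13.8% of all 32851 windows of this length. The member windows had a median GC content of 67.4% against 52.4% for all windows, and a median of 22 CpG dinucleotides against 6. The sequences before Sfrp2 (chr3:83766071-83766320, plus strand), Wnt3 (chr11:103773925-103774149, plus strand), Wnt4 (chr4:137277385-137277488, plus strand) and Wnt9a (chr11:59306680-59306927, plus strand) hold no match, and 1 of the 3 windows of Wnt5b (chr6:119449387-119449636, minus strand) holds 1, printed in capitals. Bases that overlap an annotated exon were left out, and all are given 5′ to 3′.
Sfrp2: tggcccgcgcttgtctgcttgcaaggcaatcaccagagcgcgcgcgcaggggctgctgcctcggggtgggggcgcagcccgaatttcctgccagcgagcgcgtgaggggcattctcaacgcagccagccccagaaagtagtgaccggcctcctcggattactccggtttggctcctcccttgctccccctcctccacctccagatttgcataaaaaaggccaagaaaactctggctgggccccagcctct
Wnt3: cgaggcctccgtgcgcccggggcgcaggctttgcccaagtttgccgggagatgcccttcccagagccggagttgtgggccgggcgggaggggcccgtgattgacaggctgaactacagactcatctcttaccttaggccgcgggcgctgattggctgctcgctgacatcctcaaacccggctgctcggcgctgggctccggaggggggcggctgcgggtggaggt
Wnt4: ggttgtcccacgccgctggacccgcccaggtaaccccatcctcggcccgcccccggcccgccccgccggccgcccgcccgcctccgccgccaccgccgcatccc
Wnt9a: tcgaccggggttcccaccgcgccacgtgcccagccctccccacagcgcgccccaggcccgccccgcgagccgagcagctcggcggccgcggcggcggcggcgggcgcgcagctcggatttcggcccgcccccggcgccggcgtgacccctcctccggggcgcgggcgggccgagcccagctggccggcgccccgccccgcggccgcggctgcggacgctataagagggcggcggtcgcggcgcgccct
Wnt5b: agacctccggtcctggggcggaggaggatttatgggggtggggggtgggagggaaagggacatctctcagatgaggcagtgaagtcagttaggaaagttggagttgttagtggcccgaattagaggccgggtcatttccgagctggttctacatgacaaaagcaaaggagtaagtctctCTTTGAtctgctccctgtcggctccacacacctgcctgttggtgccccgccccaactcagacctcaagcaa
Over all 250 bases, the Sfrp2, Wnt3, Wnt4 and Wnt9a windows had a GC content of 63.6%, 68%, 85.2% and 84.4%, with 16, 22, 44 and 48 CpG dinucleotides. The printed Wnt5b window had 55.6% with 7 and lies inside the gene (chr6:119432531-119544347). The window directly before the start of Wnt5b (chr6:119544348-119544597, minus strand) had 75.2% with 35 CpG dinucleotides and no match.

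Some Wnt genes are close neighbours in the genome. Wnt6 and Wnt10a lie 6193 bases apart on chromosome 1, Wnt3a and Wnt9a 16175 bases apart on chromosome 11, and Wnt9b and Wnt3 24328 bases apart on chromosome 11 (GRCm38). In mESC Wnt6 and Wnt10a shared their highest knock-in line: both Q50 libraries, at 2.16 and 2.43 CPM for Wnt6 and 1.26 and 1.63 CPM for Wnt10a, lay above the other 6 knock-in libraries. They were the 2 of 24 members for which this held, beside 5.51% of all genes. The neighbours Wnt3a and Wnt9a did not share theirs, with their highest line means in Q20 and Q111. None of these genes was called among the mESC lines, so no pattern of neighbours is read from this. Wnt9b stayed at or under 0.222 CPM in mESC while its neighbour Wnt3 reached 4.68 CPM in Q20.

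Other genes of the pathway were taken from 3 lists: surface and secreted proteins, intracellular components, and known targets. The list called intracellular also holds the Celsr and Vangl genes of planar cell polarity, which encode membrane proteins. Its name stands for the whole list, so its shares are not those of intracellular proteins alone. In mESC none of the 24, 34 and 17 tested genes of these lists was called in any comparison without the replicate block. With the block, Q20 against WT called 3, 5 and 3 of them, or 12.5%, 14.7% and 17.6%, against 10.6% of all genes: Wls, which carries Wnt proteins to the cell surface, rose by 1.95, Porcn fell by 1.03 and Notum, which removes the lipid of Wnt proteins, by 0.83; of the intracellular genes 2 rose and 3 fell, led by Prickle1 with a rise of 1.67; and of the targets Bmp4 fell by 2.05, Cd44 rose by 1.78 and T by 0.93, T having passed the filter in mESC through Q20 alone. The rise of T was thus fixed by the filter, and the 17.6% of the targets takes it in, so nothing is read from that share. With the block, any difference among the lines also called Notum, Celsr1 and Prickle1, against 1.6% of all genes, and the other mESC comparisons called none of these genes. In NPC KO against WT, 1 of 28 surface and secreted genes was called, Sostdc1, a secreted Wnt and BMP antagonist, which rose by 1.96 (SE 0.30). Of 35 intracellular genes 2 were called, the Groucho-type corepressors Tle2, which rose by 1.44, and Tle4, which fell by 0.95, and of 14 targets 0, beside 1.42% of all genes. In NPC Q20 against WT, 7 of 28 surface and secreted genes were called, 5 higher and 2 lower, led by Sulf1, an enzyme that trims heparan sulfate, with a rise of 5.77 (SE 0.18) from 0.578 and 0.773 to 89.98 and 90.7 CPM. Gpc3, a heparan sulfate carrier, rose by 3.79 and Lgr4, an R-spondin receptor, by 1.13, while Lgr5, a related receptor and Wnt target, fell by 1.11. Of the list called intracellular 3 of 35 genes were higher. They were Celsr3 and Celsr2, membrane proteins of planar cell polarity, by 2.74 and 0.81, and Prickle1, of the same pathway, by 1.42. Of the targets 4 were higher and 1 lower of 14: Lef1, a TCF/LEF factor, rose by 2.48, the mesoderm gene T by 2.07, Bmp4 by 1.18 and Sp8 by 1.01, while Axin2, a feedback inhibitor and general Wnt target, fell by 0.60 (limma adjusted p = 0.04998). Axin2, named here after its values were seen, was at 57.6 and 57.4 CPM in Q20 against 89.97 and 84.9 in WT. With the replicate block Axin2 was not called and Tcf7 was, with a rise of 1.28. The 5 targets called in that fit were all higher. Bmp4 passed the NPC filter through Q20 alone, so its rise was fixed by the filter. The shares called were 25% of the surface and secreted genes, 8.57% of the intracellular genes and 35.7% of the targets, against 14.5% of all genes. The target counts and share take in Bmp4, so nothing is read from that share.

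Against Q20, the surface and secreted genes of NPC had 9, 7 and 12 calls of 28 in Q50, Q92 and Q111, the intracellular genes 6, 12 and 10 of 35, and the targets 6, 6 and 5 of 14, or 32.1%, 25% and 42.9%, then 17.1%, 34.3% and 28.6%, and then 42.9%, 42.9% and 35.7%. The shares of all genes were 18.8%, 25.8% and 28.3%, so the surface and secreted genes in Q92 and the intracellular genes in Q50 and Q111 were near them. Of the surface and secreted genes 7, 6 and 8 of these were lower. Gpc3 fell by 4.63 in Q50, 2.37 in Q92 and 2.88 in Q111, and Sulf1 by 1.58, 5.43 and 5.59. Both were higher in Q20 than in WT, Gpc3 by 3.79 and Sulf1 by 5.77, so these falls start from raised Q20 levels. Of the called targets 3, 1 and 2 were higher and 3, 5 and 3 lower in Q50, Q92 and Q111. Bmp4 was among the lower ones in each line, and since it passed the filter through Q20 alone, its falls were fixed. The target shares above take in Bmp4, so nothing is read from how they compare with the shares of all genes. Ccnd1 rose by 3.76, 3.68 and 4.02, with CPM of 130 and 140 in Q20 and 1677 to 2298 in the longer lines. The next largest target changes were a rise of Sp8 by 2.44 in Q50 and falls of Lef1 by 2.56 in Q92 and T by 2.30 in Q111. Sp8, Lef1 and T were also higher in Q20 than in WT, by 1.01, 2.48 and 2.07. Changes of the longer lines against WT are not given for the lists. Over repeat length, 4 of 28 surface and secreted genes fell and none rose: Sulf1 by 6.11, Frzb, a further Sfrp-type inhibitor, by 3.10, Draxin by 2.40 and Porcn, the enzyme that adds the lipid to Wnt proteins, by 1.32. Of the list called intracellular 4 fell, led by Celsr1 and Apc2, by 2.54 and 2.03, and 2 rose. Of the targets 2 rose, Ccnd1 by 3.44 and Myc by 1.74. Most of the Ccnd1 rise lay between Q20 and Q50, as its changes against Q20 above show. The shares with a called slope, 14.3%, 17.1% and 14.3% of the 3 lists, were below the 22% of all genes. With the replicate block 3, 3 and 1 genes of the lists had a called slope, the last being Ccnd1 and not Myc, against 15.3% of all genes. With 1 mean per line, 0 of all 13206 genes had a called slope. The slopes of the lists also take in the Q20 libraries described above.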

How the data were processed

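RNA sequencing of total RNA from 12 mESC and 12 NPC libraries was analysed at gene level. Per the submitters' processing notes, CASAVA 1.8 and STAR were used with the genome build GRCm38.p6; the counting tool, its use of strand and the scaling are not given in the sources used here. The authors deposited CPM-type values, a signal normalised for library size. They were whole multiples of a single step in 100% of cases (tolerance 0.01), which gave back the reads of each library. The column totals ran from 900342 to 1080734, so they are not plain CPM. Because the values are scaled, limma 3.58.1 (R 4.3.3, variance trend) on log2(CPM + 1) was the test, and edgeR 4.0.16 on the recovered reads an alternative. Genes that reached 1 CPM in 2 or more libraries entered the test, with 6 group means per cell type sharing 1 spread; the threshold was 0.05 after Benjamini-Hochberg adjustment.

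Slopes on CAG length used the 8 knock-in libraries of a cell type, and their difference between cell types was the interaction over the 12321 genes tested in both. Whether replicate numbers pair libraries was checked by correlating replicate differences between groups. All 15 pairs of groups correlated over 0.1 in mESC (0.25 to 0.547) and 3 of 15 in NPC (-0.0495 to 0.467). In mESC this is a hint from the data that numbers mark pairs, but the labels do not say so. The main fits and the difference of slopes had no block in either cell type. Fits with the block were alternatives. Positions, exon numbers and lengths came from GENCODE M21 on GRCm38, which matched 99.63% of mESC and 99.82% of NPC genes. Levels in all libraries are given for members called in a comparison and the 3 of highest mean per cell type, changes with errors for the called members, and of each pathway list at most 4 called genes are named, largest change first. The members and lists were chosen with earlier results of these data known. Scripts were tested on simulated data. Alternatives were a pseudocount of 0.1, no filter, a mean CPM of at least 5, median-of-ratios scaling, edgeR, the replicate block, only the libraries of both groups, leaving out each library, 89 repeats, log2 of the length and 1 mean per line. Leaving out the Q20 line, WT as the reference, the block for the pathway lists and counts without Rspo3 were added after seeing the data.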

Additional observations from a re-analysis of the deposited data

Results flagged for a closer look

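The slopes of 2 members on CAG length differed between the cell types by a test of the difference itself, the interaction of cell type and length in limma. The slope of Dkk3 in NPC minus that in mESC was -3.14 on the log2(CPM + 1) scale over 91 repeats, and that of Wnt5a was 2.22. Each cell type has 4 lines, so length and line cannot be told apart in either slope. Neither difference was called with 1 mean per line or without the Q20 line. That of Wnt5a was also not called with a pseudocount of 0.1 or with 89 repeats.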

How the results depend on the processing

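Counts below are members called. In mESC, Q20 against WT gave 1, and 0 with a mean CPM of at least 5, with edgeR, with the spread of these 2 groups alone and on leaving out any library (0 to 0), but 4 with the replicate block and 3 with edgeR and the block; the block raised the calls over all genes from 45 to 1475. No other mESC comparison called a member under any alternative run. In NPC, where 3 of 15 pairs of groups correlated over 0.1 and WT with KO at 0.467, the replicate block took KO against WT from 1 to 0 and left the other counts within 1.5 times; edgeR with the block also gave 0 there, as did the spread of these 2 groups alone. For Q20 against WT edgeR gave 2, with or without the block. A mean CPM of at least 5, which tests fewer members, gave 2 for Q20 against WT, 2 for Q50, 4 for Q92 and 4 for Q111 against Q20, 7 for any difference among the lines and 3 for the slope. No filter on low values gave 8 for Q50 against Q20, the added ones being Dkk1, Dkk2, Wnt6 and Wnt11. With 1 mean per line the slope gave 0. Without the Q20 line there were 5 for any difference and 3 for the slope. With WT as the reference Q92 gave 6 and Q111 3. Leaving out 1 library at a time gave 0 to 6 for KO against WT, 2 to 5 for Q20 against WT, 3 to 4 for Q50, 6 to 8 for Q92, 3 to 5 for Q111, 5 to 10 for any difference and 2 to 6 for the slope; the lone library left in a group is then assumed to vary like the others. The difference of slopes gave 0 with 1 mean per line and without the Q20 line, 1 with a pseudocount of 0.1, 1 with 89 repeats, and 0 to 2 on leaving out 1 library.

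With WT as the reference the sign turned for Sfrp1 (1.11) and Fzd6 (0.79) in Q50, Sfrp1 (0.48) and Wnt5a (-0.019) in Q92, and Rspo3 (0.38) and Fzd6 (1.28) in Q111. No other named change of a member turned its sign under any alternative run. For the pathway lists, changes of the longer lines are given against Q20 alone, so this does not cover them. Rspo3, with 0 to 576 reads per NPC library, fails the filter in fits without a Q20 library. The cause of the shifts was not tested.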
